A study of Mus musculus with 7 samples.

Results

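Neutrophil granule and myeloid genes were examined in nucleus pulposus, the soft centre of the disc between vertebrae, of wild-type mice and of mice without the lactate exporter MCT4, encoded by Slc16a3. The set was a list of 36 genes taken by symbol from the array annotation, of which 33 were measured among 19505 genes in all. Fpr1, Fpr2 and Slpi were not matched and were not analysed here. Each gene is given by 1 array feature, a transcript cluster, and no measured member had more than 1.

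RNA was hybridised to Affymetrix arrays, 1 array per animal, from nucleus pulposus pooled over the lumbar and caudal discs of that animal. The 4 control animals (WT 1 to 4) were wild type and, per the descriptions, 13 months old. The 3 others (MCT4KO 1 to 3) carried a global knockout of MCT4 and were 14 months old, so the effect of age cannot be told apart from that of genotype. Breeding was of heterozygous parents on a C57Bl/6N background, with wild-type and knockout animals obtained as littermates. The sample labels name the strain C57BL/6 for all 7 animals, whereas the series text names C57Bl/6 for WT and C57Bl/6N for the knockouts. If the series text holds, the effect of strain cannot be told apart from that of genotype either. No treatment was given, and sex was not analysed here.

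Neutrophils are short-lived phagocytes made in bone marrow, and they carry their weapons preformed in granules that are filled in a fixed order as the cell matures. Primary granules, filled first, hold myeloperoxidase and serine proteases. Specific and gelatinase granules, filled later, hold lactoferrin, cathelicidin, lipocalin and metalloproteinases, while calprotectin, the S100A8 and S100A9 dimer, fills the cytosol. Transcription of granule genes in the marrow depends on C/EBP factors and on PU.1. The healthy adult nucleus pulposus has no blood vessels of its own and lies next to vertebrae that contain marrow.

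Promoters of the 6 members with the largest excess of the WT mean over the MCT4KO mean are shown because these genes carry most of what follows. Each line is the 250 bases upstream of the RefSeq start in build GRCm38.p6, 5′ to 3′ on the gene's own strand. Capitals mark matches, on either strand, to a C/EBP pattern (TTNNGNAA) or a PU.1 pattern (GAGGAA), and no C/EBP match overlapped a PU.1 match in these windows.
S100a8, chr3:90668821-90669070, plus strand: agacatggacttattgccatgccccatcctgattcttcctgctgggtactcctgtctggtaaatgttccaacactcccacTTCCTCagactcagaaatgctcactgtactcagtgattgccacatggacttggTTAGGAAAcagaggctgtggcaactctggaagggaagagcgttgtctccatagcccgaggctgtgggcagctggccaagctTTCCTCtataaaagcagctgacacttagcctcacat
Ngp, chr9:110419558-110419807, plus strand: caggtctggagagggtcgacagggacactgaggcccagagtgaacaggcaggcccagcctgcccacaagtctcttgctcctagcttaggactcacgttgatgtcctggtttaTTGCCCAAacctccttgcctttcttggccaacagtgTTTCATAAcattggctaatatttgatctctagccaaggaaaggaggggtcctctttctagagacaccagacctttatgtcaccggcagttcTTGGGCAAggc
S100a9, chr3:90695722-90695971, minus strand: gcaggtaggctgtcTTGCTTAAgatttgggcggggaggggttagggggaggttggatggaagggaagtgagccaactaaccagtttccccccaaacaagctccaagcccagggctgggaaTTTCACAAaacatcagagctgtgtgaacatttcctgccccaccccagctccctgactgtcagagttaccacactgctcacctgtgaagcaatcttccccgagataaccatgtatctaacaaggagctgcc
Retnlg, chr16:48872358-48872607, plus strand: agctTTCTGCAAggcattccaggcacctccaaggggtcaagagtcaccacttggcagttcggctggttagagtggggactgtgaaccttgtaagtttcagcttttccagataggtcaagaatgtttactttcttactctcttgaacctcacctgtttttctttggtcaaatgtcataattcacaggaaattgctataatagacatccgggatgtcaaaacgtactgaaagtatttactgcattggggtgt
Lyz2, chr10:117282273-117282522, minus strand: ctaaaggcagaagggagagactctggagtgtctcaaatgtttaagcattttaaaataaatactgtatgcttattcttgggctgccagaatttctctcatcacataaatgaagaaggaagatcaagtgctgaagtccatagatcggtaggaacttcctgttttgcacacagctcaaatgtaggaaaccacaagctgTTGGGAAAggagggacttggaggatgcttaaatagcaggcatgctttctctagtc
Lcn2, chr2:32387740-32387989, minus strand: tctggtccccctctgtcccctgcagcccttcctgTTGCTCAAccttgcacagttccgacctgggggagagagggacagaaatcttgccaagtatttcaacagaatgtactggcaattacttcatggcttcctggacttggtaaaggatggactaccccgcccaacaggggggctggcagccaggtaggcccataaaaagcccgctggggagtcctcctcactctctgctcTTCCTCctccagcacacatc

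A C/EBP pattern was present in all 6 of these windows, as it was in 36.8% of 32851 such windows of all genes. The PU.1 pattern was present in those of S100a8 and Lcn2 and in 23.3% of all windows. RefSeq windows existed for 31 of the 36 listed genes, 33 windows in all, of which 19 held the C/EBP pattern, 17 the PU.1 pattern and 10 both, while 8.87% of all windows held both. A match is a run of letters and was not tested as a site. S100a8 and S100a9 are adjacent in the RefSeq order of protein-coding genes on chromosome 3, as are Prtn3 and Elane on chromosome 10.

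The label and the tissue were checked first. Slc16a3 read 13.55, 13.35, 13.61 and 13.40 in the 4 WT animals on the deposited log2 scale, against 5.02, 4.98 and 4.47 in the 3 knockouts, a change of -8.65 ± 0.165 (SE; limma adjusted p = 6.7e-09). Of 19 measured nucleus pulposus markers, 2 were at background in both groups, and the list mean ranged from 12.25 to 12.47 over the WT arrays and from 12.42 to 12.60 over the MCT4KO arrays. Background was set by 5222 negative control features, whose median was 5.91 to 6.08 on the 7 arrays. A group is called at background for a gene when all its arrays read at or below their own control medians. A value above its control median can still lie within the spread of the controls, whose 95th percentile was 9.59 to 10.03. No pair of arrays was identical.

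No member passed the test between genotypes. In limma, with p-values adjusted over all 19505 genes and a threshold of 0.05, 0 of 33 members were called in either direction, against 0.59% of all genes. At an unadjusted p under 0.05, 6 members were lower in MCT4KO (S100a8, S100a9, Ngp, Lyz2, Retnlg and Cybb) and 0 were higher, where 6.9% and 5.76% of all genes were. The log2 change was below 0 for 25 of 33 members, against 47.0% of all genes, and its median was -0.43 over the members and 0.02 over all genes. In 5 members (S100a8, S100a9, Ngp, Lyz2 and Retnlg) every MCT4KO value lay below every WT value, as in 6.37% of all genes, and in 0 members was the order the reverse. The mean over the 33 members was 6.62, 7.89, 5.73 and 5.97 in the WT animals, in the order of their numbers, and 5.85, 5.42 and 5.52 in the knockouts, so the genotypes overlapped in that mean. In whole tissue, fewer cells of a type and less RNA per cell cannot be told apart.

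**Figure D1:**
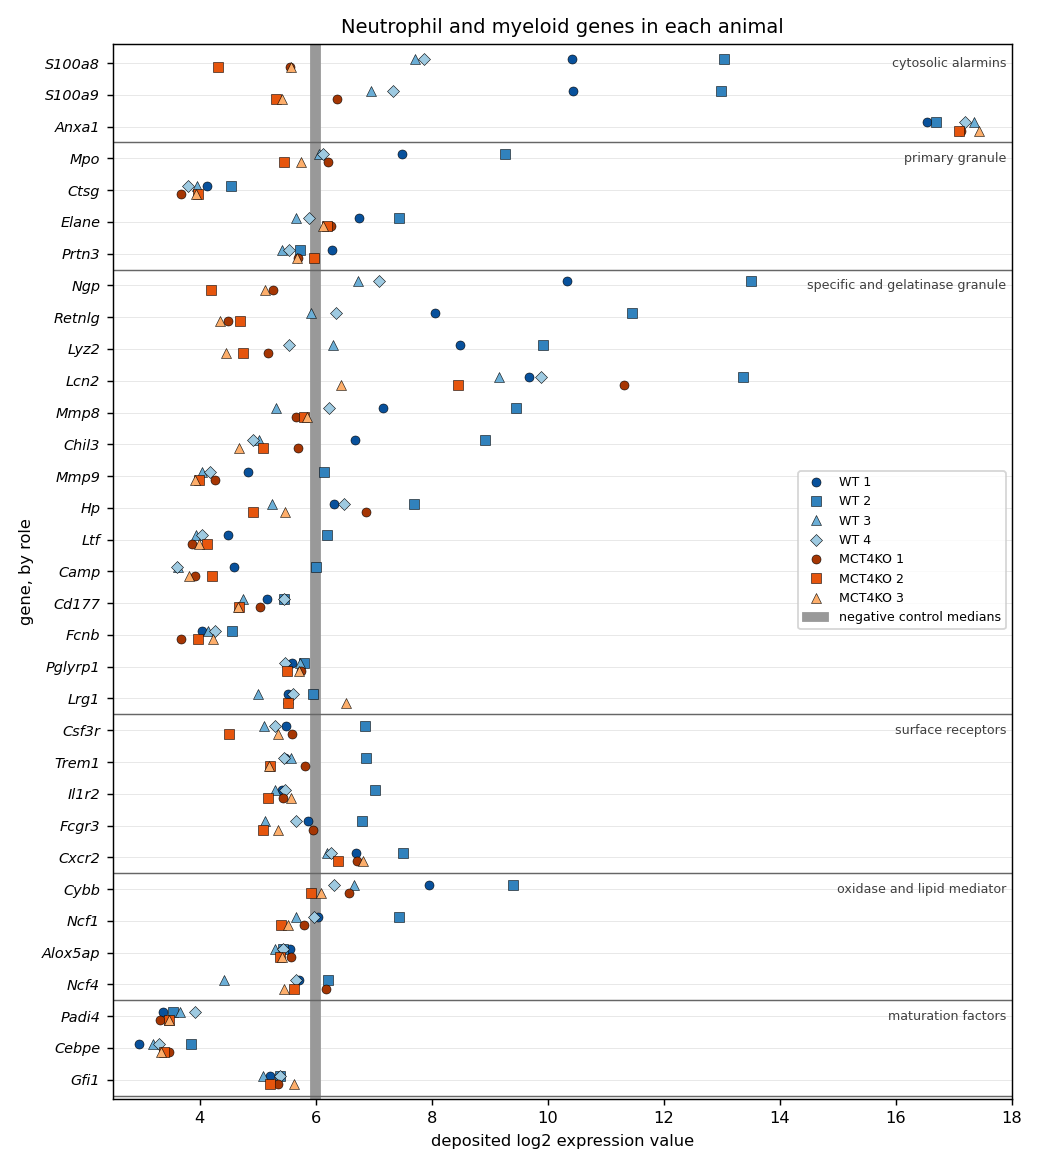
Deposited log2 value of each of the 33 measured members (x axis) in each animal, grouped by role, with WT in blue, MCT4KO in orange and the range of the arrays' negative control medians (5.91 to 6.08) as a grey band. WT 2, then WT 1, lie to the right for S100a8, Ngp and most granule genes, while MCT4KO values for 22 members lie at or below their control medians.

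The members varied widely among the WT animals. WT 2 gave the highest of the 7 values for 26 of 33 members, and did so for 12.8% of all genes. WT 2 exceeded WT 1, and WT 1 exceeded both WT 3 and WT 4, in 19 members (8.82% of all genes). The SD over the 4 WT animals was above 1 log2 unit for 13 members and for 0.631% of all genes, and 11 members were among the 100 genes with the highest WT SD. The median WT SD was 0.792 over the members and 0.196 over all genes. The corresponding median SD in MCT4KO was 0.213 over the members and 0.209 over all genes.

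The cytosolic genes S100a8 and S100a9 encode the calprotectin subunits that bind zinc and manganese. Together with Ngp they had the largest differences in log2 mean between the genotypes among the members. S100a8 read 10.41, 13.04, 7.71 and 7.86 in WT 1 to 4, against 5.56, 4.31 and 5.57 in the knockouts. All 4 WT animals were above their control medians and all 3 knockouts were at background. WT 1 and WT 2 were at percentiles 96.7 and 98.7 of the negative controls, WT 3 and WT 4 at 80.2 and 80.7. The difference in log2 mean was -4.61 ± 1.10 (SE; limma adjusted p = 0.12), and the WT mean exceeded that of MCT4KO by at least 13.6-fold, counted against the control medians. Here and below, such a bound allows for readings under the control medians and not for the spread between animals. That bound was 6.38-fold without WT 2, 21.8-fold without WT 3 and 21.1-fold without WT 4. S100a9 read 10.42, 12.99, 6.94 and 7.34 in WT and 6.36, 5.32 and 5.42 in MCT4KO. Its animals stood in nearly the same order as for S100a8, and only MCT4KO 1 among the knockouts was above its control median. WT 3 and WT 4 were at percentiles 68.0 and 74.0 of the negative controls. The difference was -3.72 ± 1.23 (adjusted p = 0.27), or -3.31 with every value below its control median raised to it.

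Anxa1, an anti-inflammatory phospholipid-binding protein abundant in neutrophils and also made by many other cells, did not follow that order. Its values were 16.54, 16.69, 17.35 and 17.18 in WT and 17.13, 17.08 and 17.43 in MCT4KO, at percentiles of 99.6 to 99.8 of the negative controls of each array. WT 1 and WT 2 were here the lowest animals, and the difference was 0.27 ± 0.211 (adjusted p = 0.61).

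Among the 4 primary granule genes, which are transcribed in marrow promyelocytes, the pattern of WT 2 and WT 1 was visible in Mpo and Elane. Mpo, the peroxidase that makes hypochlorous acid, read 7.49, 9.26, 6.05 and 6.11 in WT and 6.21, 5.45 and 5.75 in MCT4KO. WT 3 and WT 4 were within the range set by the knockouts, and the difference was -1.43 ± 0.666 (adjusted p = 0.42). Elane, neutrophil elastase, read 6.75, 7.43, 5.66 and 5.87 in WT and 6.26, 6.18 and 6.13 in MCT4KO, so that the knockouts lay between the high and the low WT animals (-0.24 ± 0.366, adjusted p = 0.82). Prtn3, proteinase 3, ranged from 5.42 to 6.27 in WT and from 5.68 to 5.97 in MCT4KO, and Ctsg, cathepsin G, was at background in both groups.

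The specific and gelatinase granule genes formed the largest group, with 14 of 15 measured and 0 called. Ngp, a cathelicidin-related granule protein, read 10.33, 13.51, 6.73 and 7.09 in WT and 5.26, 4.19 and 5.13 in MCT4KO. Its WT SD of 3.17 was the third highest of all 19505 genes, and the WT animals spanned 6.77 log2 units from WT 3 to WT 2. WT 3 and WT 4 were at percentiles 64.2 and 69.9 of the negative controls. The difference was -4.56 ± 1.37 (adjusted p = 0.22), at least 10.8-fold, with the bound at 4.19-fold without WT 2, 20.02-fold without WT 3 and 18.4-fold without WT 4. Retnlg, a resistin-like secreted protein of neutrophils, read 8.06, 11.46, 5.91 and 6.35 in WT and 4.49, 4.69 and 4.35 in MCT4KO. The knockouts were at background and close to one another, whereas WT 3 was also just below its control median. WT exceeded MCT4KO by at least 3.88-fold (-3.43 ± 1.08, adjusted p = 0.24), and by at least 1.72-fold without WT 2 and 6.21-fold without WT 3. Lyz2, the lysozyme of neutrophils and macrophages, read 8.49, 9.92, 6.30 and 5.54 in WT and 5.17, 4.74 and 4.45 in MCT4KO. Here WT 4 was at background with the knockouts, and the excess of WT was at least 2.98-fold (-2.77 ± 0.870, adjusted p = 0.24), with the bound at 1.73-fold in the absence of WT 2 and at 4.74-fold in that of WT 4.

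Mmp8 and Chil3 followed WT 1 and WT 2 without separating the genotypes. Mmp8, neutrophil collagenase, read 7.16, 9.45, 5.32 and 6.22 in WT and 5.66, 5.79 and 5.85 in MCT4KO, and WT 3 was the lowest of all 7 animals (-1.27 ± 0.765, adjusted p = 0.51). Chil3, a chitinase-like secreted protein of neutrophils and alternatively activated macrophages, read 6.67, 8.91, 5.03 and 4.92 in WT and 5.69, 5.08 and 4.68 in MCT4KO (-1.23 ± 0.822, adjusted p = 0.56). In group means, WT exceeded MCT4KO by at least 2.07-fold for Mmp8, and by at least 1.18-fold without WT 2. For Chil3 the bound was 1.32-fold, and without WT 2 no excess of WT over background remained.

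Mmp9, Ltf and Camp encode gelatinase B, lactoferrin and the cathelicidin precursor. WT 2 was the 1 animal above its control median, at 6.14 for Mmp9, 6.19 for Ltf and 6.00 for Camp. The other WT animals ranged from 3.60 (Camp in WT 4) to 4.83 (Mmp9 in WT 1) and the knockouts from 3.81 (Camp in MCT4KO 3) to 4.25 (Mmp9 in MCT4KO 1). Raising values to the control medians gave differences of -0.04 for Mmp9, -0.06 for Ltf and -0.01 for Camp. Cd177, a neutrophil surface antigen stored in granules, Pglyrp1, which binds bacterial peptidoglycan, and Fcnb, a ficolin of immature myeloid cells, were at background in both groups.

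Lcn2, Hp and Lrg1 are acute-phase genes that tissue cells other than neutrophils also transcribe, and they had another order of animals. Lcn2, the siderophore-binding lipocalin, read 9.67, 13.37, 9.16 and 9.88 in WT and 11.30, 8.45 and 6.43 in MCT4KO. WT 2 was again the highest, but MCT4KO 1 was the second highest and every animal was above its control median. The SD of Lcn2 was 2.45 within MCT4KO and 1.92 within WT, and the difference was -1.79 ± 1.19 (adjusted p = 0.56), ranging from -3.08 without MCT4KO 1 to -0.64 without MCT4KO 3, with -0.84 without WT 2. Hp, haptoglobin, read 6.31, 7.69, 5.24 and 6.48 in WT and 6.86, 4.92 and 5.47 in MCT4KO. MCT4KO 1 was the second highest animal there too (-0.68 ± 0.562, adjusted p = 0.64). Lcn2 and Hp were the 2 members with an SD above 1 within MCT4KO, as 0.518% of all genes had. Lrg1, a secreted leucine-rich glycoprotein, was at background in all WT animals and above its control median in MCT4KO 3, at 6.52 (0.33 ± 0.286, adjusted p = 0.66).

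**Figure D2:**
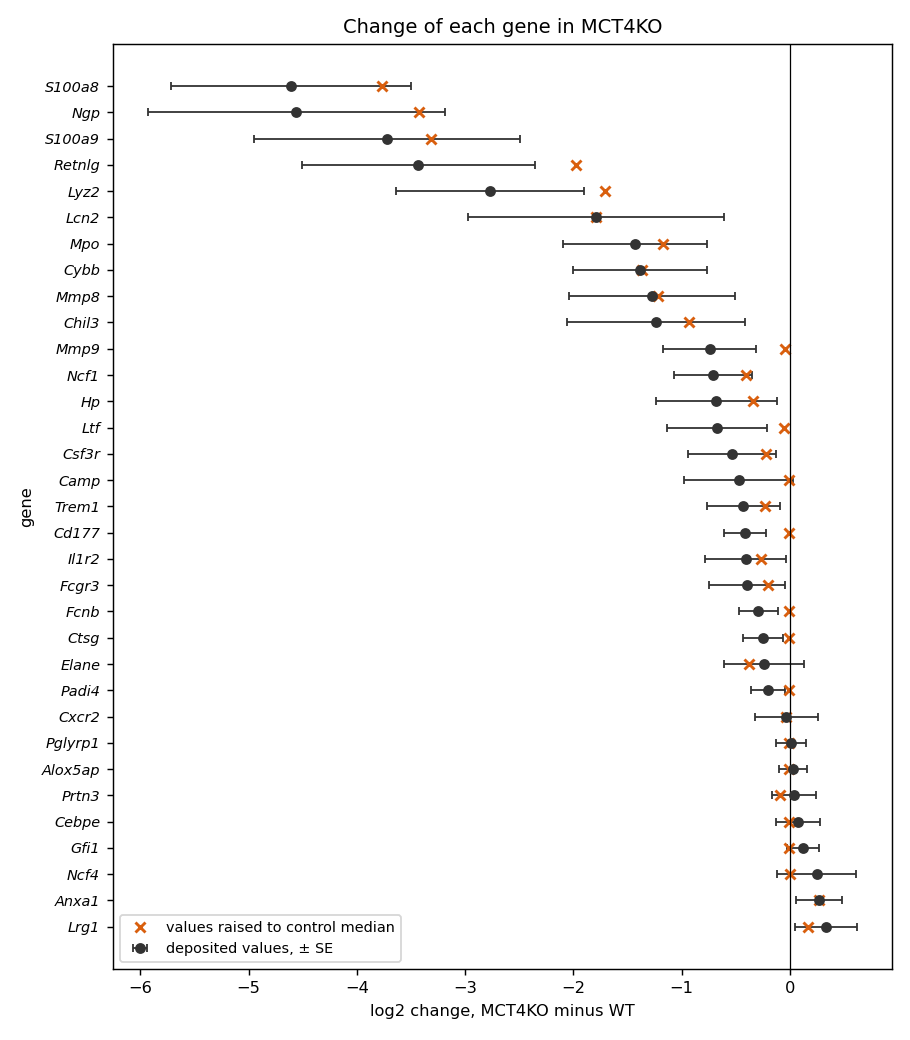
Log2 change of each measured member in MCT4KO against WT (x axis) from the limma fit, with its SE as a bar, and the change after values below an array's negative control median were raised to it (crosses). S100a8, Ngp and S100a9 keep changes beyond -3 either way, whereas Mmp9, Ltf and Camp move to between -0.06 and -0.01.

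All 5 measured surface receptor genes had their highest value in WT 2. Csf3r, the receptor of the granulocyte growth factor G-CSF, read 5.49, 6.84, 5.10 and 5.29 in WT and 5.59, 4.50 and 5.35 in MCT4KO. Trem1, an amplifier of inflammatory signalling, read 5.46, 6.87, 5.58 and 5.45 in WT and 5.82, 5.21 and 5.20 in MCT4KO. Il1r2, the decoy receptor of interleukin-1, read 5.42, 7.03, 5.29 and 5.46 in WT and 5.44, 5.17 and 5.57 in MCT4KO. In these 3 genes, and in Fcgr3, an activating Fc receptor shared with macrophages and natural killer cells, WT 2 was the 1 animal above its control median, while the rest of the WT animals overlapped the knockouts. Cxcr2, the receptor of neutrophil-attracting chemokines, was above the control median in every animal, from 6.19 to 7.50 in WT and from 6.38 to 6.81 in MCT4KO (-0.03 ± 0.291, adjusted p = 0.97). The adjusted p of the 5 receptors ranged from 0.61 to 0.97.

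The phagocyte NADPH oxidase makes superoxide, and 3 of its subunits are members. Cybb, the membrane-bound catalytic subunit gp91phox, read 7.94, 9.40, 6.66 and 6.32 in WT and 6.57, 5.92 and 6.09 in MCT4KO. WT 1 and WT 2 were apart from the other animals, and WT 4 lay below MCT4KO 1 (-1.39 ± 0.618, adjusted p = 0.39). The cytosolic organiser Ncf1 read 6.04, 7.44, 5.66 and 5.97 in WT and 5.79, 5.40 and 5.52 in MCT4KO (-0.71 ± 0.363, adjusted p = 0.45). Ncf4, another cytosolic subunit, had its highest values in WT 2 (6.20) and MCT4KO 1 (6.17) and its lowest in WT 3 (4.42). Alox5ap, the 5-lipoxygenase activating protein of leukotriene synthesis, was at background in both groups, at 5.30 to 5.57 in all animals.

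The 3 maturation factors were at background in both groups. Cebpe, the C/EBP factor needed for specific granule genes, ranged from 2.94 to 3.84 over all animals, Gfi1, a transcriptional repressor of granulopoiesis, from 5.09 to 5.62, and Padi4, the enzyme that citrullinates histones in neutrophil extracellular traps, from 3.31 to 3.92. Their WT and MCT4KO ranges overlapped, with adjusted p from 0.61 to 0.90. In all, 8 members were at background in both groups, against 39.1% of all genes. In 14 members MCT4KO was at background and WT was not, against 1.84% of all genes, and in 7 of the 14 the 1 WT array above its control median was WT 2.

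Single animals moved the sizes of the differences, and no member was called in any of 17 alternative fits. The median change over the members was -0.17 without WT 2 and -0.05 without WT 1 and WT 2 together, against -0.43 with all animals. Without both, the median SD over WT 3 and WT 4 was 0.148, against 0.792 over all WT animals, and 19 members had a change below 0. WT 1 and WT 2 had the highest WT means over these same members, so leaving them out narrows the spread by construction. In that fit S100a8 differed by -2.64 (limma adjusted p = 0.065), Ngp by -2.06 (0.091), Retnlg by -1.62 (0.051), S100a9 by -1.44 (0.21) and Lyz2 by -1.13 (0.25). These p-values follow the removal of the WT animals highest in the same values, so they cannot serve as tests. With single animals left out, the lowest limma adjusted p was 0.107 for S100a8, 0.189 for Ngp and 0.122 for Retnlg. With those animals left out, every knockout value lay below every WT value in 6 of 33 members, where 13.8% of all genes did, and above in 5 (Elane, Prtn3, Camp, Cxcr2 and Cebpe), where 14% of all genes did. Over all alternatives run, adjusted p ranged from 0.065 to 0.36 for S100a8 and from 0.051 to 0.77 for Retnlg, the lowest of each being from the fit without WT 1 and WT 2. Without MCT4KO 1, every knockout value lay below every WT value in 12 members instead of 5, where 9.32% of all genes did. Without WT 3 that count was 8, where 8.01% of all genes did. In the other fits without 1 animal it was 5 or 6, where 8.64% to 12% of all genes did.

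**Figure D3:**
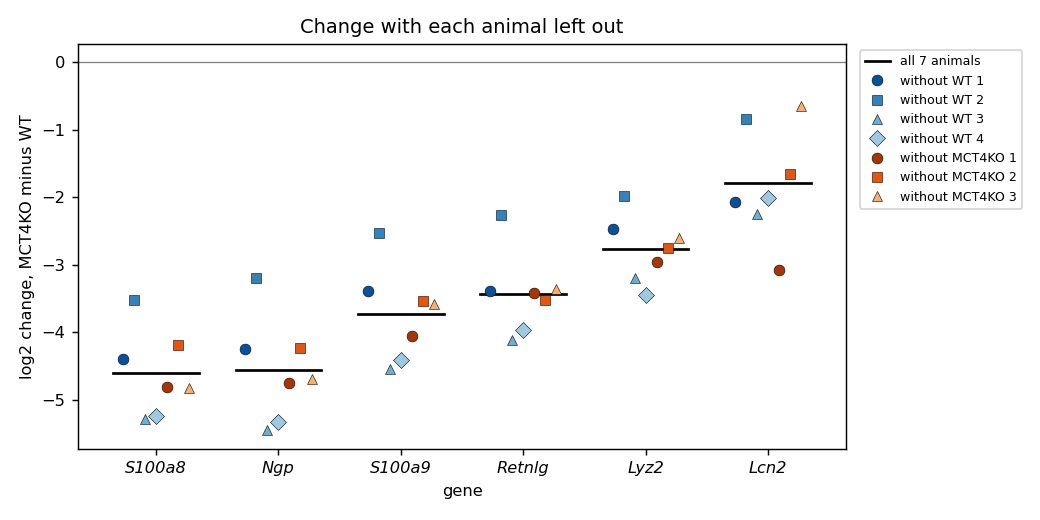
Log2 change in MCT4KO against WT (y axis) for the 6 members with the largest WT excess, from all 7 animals (black line) and with each animal left out in turn (symbols). Leaving out WT 2 gives the smallest differences for S100a8, Ngp, S100a9, Retnlg and Lyz2, and Lcn2 ranges from -3.08 to -0.64.

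Other genes of neutrophils and their lineage, from lists without members, were mostly at background. Of 34 such neutrophil genes measured, which share Cd24a with the nucleus pulposus markers, 0 were called, 3 were lower at an unadjusted p under 0.05, as 6.9% of all genes were, 22 were at background in both groups, 15 had a change above 0 and 17 had WT 2 highest. Their median change was -0.07, or -0.01 with values raised to the control medians. Those 3 genes were Prok2, Igsf6 and Itgam. Prok2, a chemokine-like secreted protein, read 5.29, 4.81, 5.03 and 5.69 in WT and 4.38, 4.70 and 4.58 in MCT4KO, with WT 4 highest and WT 2 the lowest WT animal. Igsf6, an immunoglobulin superfamily member of myeloid cells, read 5.28, 5.20, 4.70 and 4.76 in WT and 4.35, 4.39 and 4.62 in MCT4KO, with WT 1 highest. Both were at background in every animal. Itgam, the CD11b integrin chain of neutrophils and macrophages, read 5.02, 6.32, 4.45 and 4.56 in WT and 3.58, 3.73 and 4.42 in MCT4KO (-1.18 ± 0.412, adjusted p = 0.29), with WT 2 highest and the 1 animal above its control median. It was named after its values were seen. Of 12 myeloid transcription factors, 0 were called and 1 was lower at an unadjusted p under 0.05, where 6.9% of all genes were. This was Spi1, which encodes PU.1 and read 7.28, 8.68, 5.90 and 6.19 in WT and 6.00, 5.36 and 4.36 in MCT4KO (-1.77 ± 0.619, adjusted p = 0.29). Its WT animals stood in the order of S100a8. Of 14 genes of neutrophil attractants and growth factors, 0 were called, 0 had an unadjusted p under 0.05, 10 were at background in both groups, 7 had a change above 0 and 4 had WT 2 highest. Cxcl2, a ligand of Cxcr2, read 7.56 in WT 2 and from 4.37 to 4.83 in the other 6 animals, and Il1b, an inflammatory cytokine, 7.52 in WT 2 and 5.26 to 5.94 elsewhere. Cxcl2 was named after its values were seen, as was Cxcl1. Other attractant genes had other animals highest, such as Cxcl1, another Cxcr2 ligand at background throughout, with its highest value in WT 3 (4.16).

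Markers of other blood cells were set beside the members, and their part in the result was not tested. WT 2 was the highest animal in 6 of the 12 myeloid transcription factors above, 4 of 14 monocyte and macrophage, 4 of 8 erythroid, 7 of 13 mast cell, basophil and eosinophil, 2 of 10 B cell, 2 of 9 T and NK cell and 0 of 8 platelet and megakaryocyte genes. Monocyte and macrophage markers had a mean of 5.64 to 6.03 in WT and 5.66 to 5.86 in MCT4KO, with 8 of 14 at background in both groups and a median change of 0.00. At an unadjusted p under 0.05, 1 was lower and 1 higher in MCT4KO, where 6.9% and 5.76% of all genes were. The lower, Ccr2, read 4.77, 4.72, 4.31 and 4.26 in WT and 4.07, 4.21 and 3.55 in MCT4KO (-0.57 ± 0.202, adjusted p = 0.29). The higher was Marco (0.35 ± 0.150, adjusted p = 0.38), and both genes were at background in every animal. Erythroid markers had a mean of 7.09 to 7.72 in WT and 7.04 to 7.24 in MCT4KO. Of 8, 7 had a change below 0, against 47.0% of all genes, and the median change was -0.05. Alas2, the erythroid heme synthesis enzyme, was the 1 lower at an unadjusted p under 0.05, where 6.9% of all genes were. It read 6.11, 7.70, 5.88 and 5.66 in WT and 5.39, 5.49 and 5.32 in MCT4KO (-0.94 ± 0.411, adjusted p = 0.38). Every MCT4KO value of Alas2 lay below every WT value, as in 6.37% of all genes. B cell markers were at background in both groups in 9 of 10 genes and T and NK cell markers in 7 of 9, with means of 4.38 to 4.69 and 4.63 to 4.82 in WT and of 4.43 to 4.81 and 4.65 to 4.84 in MCT4KO. Mast cell, basophil and eosinophil markers had a mean of 4.59 to 5.04 in WT and 4.71 to 4.77 in MCT4KO, with 10 of 13 at background in both groups. Platelet and megakaryocyte markers had a mean of 5.21 to 5.74 in WT and 5.36 to 5.53 in MCT4KO, and there WT 1 was highest.

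Proliferation genes, which marrow progenitors and other dividing cells express, had a list mean with another order of WT animals than that of the members. What this means for the members was not tested. WT 2 was the highest animal in 5 of these 19 genes, among them Mki67 (9.38). Of 19 measured, 2 fell, Mki67 (-1.75 ± 0.207, adjusted p = 0.015) and Rrm2 (-1.54 ± 0.275, adjusted p = 0.048), where 0.472% of all genes fell. Of the 17 alternatives, 13 called Mki67 (adjusted p from 0.0082 to 0.069), the exceptions being values raised to background, the replicate block and leaving out WT 3 or MCT4KO 3. Rrm2 was called in 7 of them (0.0083 to 0.16), and of the fits without 1 animal only in that without WT 1. The list mean was 7.01, 7.22, 7.27 and 7.27 in the WT animals, all above the 6.47, 6.50 and 6.67 of the knockouts. The list means of skeletal muscle, endothelial, osteoblast and osteoclast markers overlapped between the groups, with 0 genes called in each list and median changes of 0.08, 0.14, -0.15 and 0.04.

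**Figure D4:**
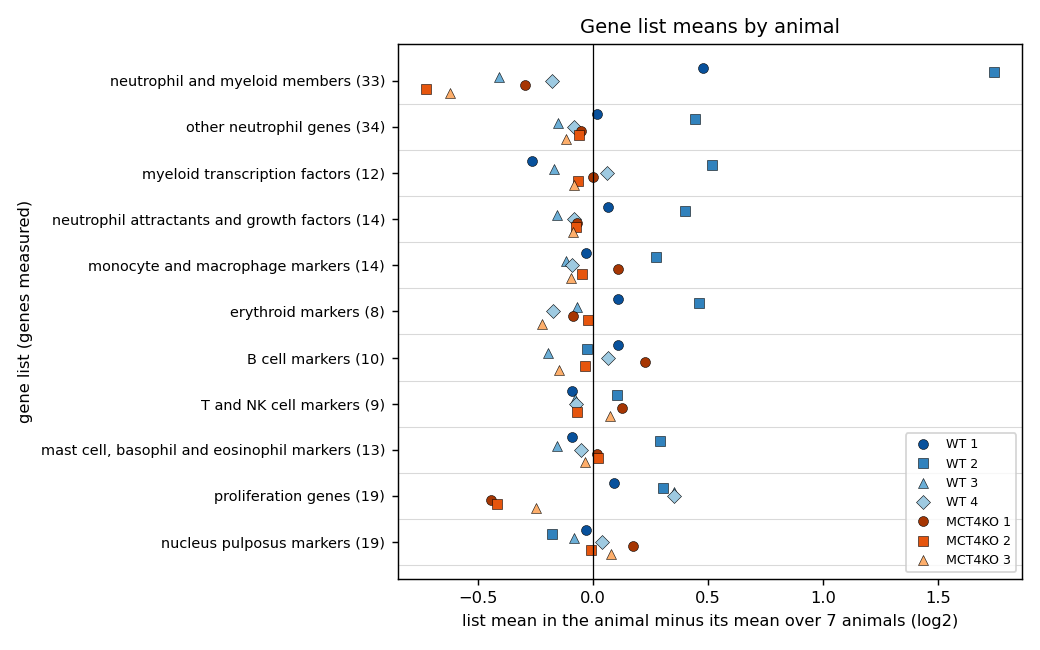
Mean of each gene list in each animal minus the mean of that list over the 7 animals (x axis, log2), with WT in blue and MCT4KO in orange and the number of measured genes in brackets. The 33 members have the widest spread, from WT 2 and WT 1 on the right to MCT4KO 2 on the left, and WT 2 is also the animal farthest to the right for other neutrophil, myeloid transcription factor, attractant, monocyte, erythroid and mast cell lists.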

How the data were processed

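The table the authors deposited holds log2 values, 1 for each feature on each array. The submitters' processing notes name Affymetrix Expression Console 1.4.1. How background and normalization were handled, and the build, is not stated in these sources. The log2 scale is inferred from the range (2.44 to 19.41), whose top exceeds the log2 of a scanner reading, so fold changes are on the deposited scale. They were used without further normalization.

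Of 22206 transcript clusters, 19572 had exactly 1 gene symbol here, and the other 2634 were left out of the main fit. For 55 genes with several features the one with the highest mean over 7 arrays was used, which left 19505 genes. These were fitted in limma 3.58.1 (R 4.3.3; lmFit, eBayes, no covariate), MCT4KO against WT, two-sided, with Benjamini-Hochberg adjustment over all genes. The fit was checked on simulated arrays. Precision is limited by 4 and 3 animals, with a median SE of 0.167 per gene. Scan dates were not analysed here.

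The members, lists and tests were chosen with earlier results of these data known, so no p-value was computed over a list. All members are named, of other lists the called genes and up to 2 with the smallest p where a sentence turns on them, with exceptions stated. Promoters are for the members with the largest WT excess. Alternatives were quantile normalization, median centring, values raised to background, a filter on dim genes, features averaged, all transcript clusters, eBayes with trend and robust, array weights, a replicate block and leaving out animals.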

Additional observations from a re-analysis of the deposited data

Results flagged for a closer look

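For 2 members the value of WT 2 stood far from the other 3 WT animals, among 35 sets of WT values examined, and chance flags about 1 in 20 such sets. For Trem1 the gap between WT 2 (6.87) and the next WT animal took up 0.910 of the WT range, and for Il1r2 (7.03) it took up 0.904, both above Dixon's 95% critical value for 4 samples. Groups of 3 were not examined in this way.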

How the results depend on the processing

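Under all 17 alternatives 0 members were called and Slc16a3 stayed called, with changes from -8.75 to -7.49. The count of genes called, 115, was 26 with values raised to background, 60 over all transcript clusters, 6 with the replicate block, 16 without WT 1 and WT 2 and 15 to 64 without single animals. Same-numbered animals share only a number (their deviations from the group means correlated at -0.127, 0.0157 and 0.0499 over genes). The block keeps 6 animals and fewer residual degrees of freedom, and it changed no call among the members. The median over the members was -1.43 and their median WT SD 1.78 without dim genes, with 5 instead of 22 at background in MCT4KO, since that filter removes members by their mean over all arrays. Members whose groups did not overlap, in either direction, numbered 5 to 12 without single animals. In those fits MCT4KO lay below WT in 8.01% to 12% of all genes and above in 7.67% to 11.4%. The lowest count, 5, came without MCT4KO 2, where the shares were 12% and 11.4%. Without WT 1 and WT 2 such members numbered 11. Of these, 6 were lower and 5 higher in MCT4KO, against 13.8% and 14% of all genes.

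Of 541 member values under alternatives, 504 kept direction and side of the threshold and 37, in 15 members, changed sign, none of them called. These counts include the 8 members at background in both groups, whose sign after raising to background was fixed by the control medians. Quantile normalization gave -0.015 for Prtn3, -0.045 for Pglyrp1 and -0.048 for Alox5ap. Values raised to background gave -0.095 for Prtn3, -0.00063 for Ncf4 and -0.0079 for Pglyrp1, Alox5ap, Cebpe and Gfi1. The -0.0079 is the difference between the groups' mean control medians, which replace every value of a gene at background in both groups. It holds no signal of these genes. Array weights gave 0.0089 for Cxcr2, and the replicate block -0.027 for Prtn3 and -0.044 for Pglyrp1. Without WT 1 and WT 2 the changes were -0.053 for Anxa1, 0.42 for Elane, 0.00032 for Ltf, 0.37 for Camp, 0.17 for Chil3, 0.41 for Cxcr2, 0.016 for Il1r2 and 0.074 for Fcgr3. Without single animals Prtn3 ranged from -0.064 to 0.22, Pglyrp1 from -0.044 to 0.090, Alox5ap from -0.030 to 0.071, Cebpe from -0.050 to 0.25, Elane from -0.49 to 0.094, Camp from -0.76 to 0.043, Cxcr2 from -0.19 to 0.25, Il1r2 from -0.58 to 0.0023, Ncf4 from -0.11 to 0.48 and Lrg1 from -0.00059 to 0.50. The causes were not tested.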
